A study of Homo sapiens with 6 samples.

Results

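The transcripts of the human mitochondrial genome were examined in HUDEP-2 cells after knockdown of MEN1. The members are all rows of the deposited gene tables whose symbol starts with MT-, 37 of 62754 rows: 13 mRNAs, 2 rRNAs and 22 tRNAs. HUDEP-2 is an immortalised human erythroid progenitor line, and MEN1 encodes menin, a subunit of the MLL1 histone methyltransferase complex. Cells carried 1 lentiviral shRNA, named MEN1sh2 in the labels (3 libraries, genotype given as MEN1 knockdown), or a control shRNA without a target (3 libraries, genotype given as WT). The medium of both groups held doxycycline (1 µg per ml) and dexamethasone (1e-06 M) beside the growth factors SCF (50 ng per ml) and EPO (3 units per ml). Both were selected with puromycin at 2 µg per ml from 24 h after infection for 48 h and were taken at 72 h. With a lone hairpin, an effect of MEN1 loss and an off-target effect of the hairpin cannot be told apart. The labels number the replicates as biological without saying how the cultures were kept apart, so the spread between libraries is the only error available.

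The mitochondrial genome is a small circle that is transcribed from both strands into long precursors. In most places tRNAs lie between the mRNAs and rRNAs, and their excision by the RNase P complex and ELAC2 releases the neighbouring RNAs. The 13 mRNAs encode core subunits of respiratory complexes I, III, IV and V, the 2 rRNAs form the mitochondrial ribosome with imported proteins, and the 22 tRNAs serve it. Erythroid precursors depend on mitochondria for heme synthesis and lose them as they mature into red cells. Heavy-strand mRNAs carry short poly(A) tails, which in several of them complete the stop codon, while MT-ND6 on the light strand is known to lack a stable tail. The RNA here was selected for poly(A), so mRNAs, rRNAs and tRNAs are described apart.

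Rows of this genome abut or overlap, and this bears on every value that follows. The 37 rows have the same start, end and strand as in GENCODE release 29 on GRCh38. MT-ATP8 and MT-ATP6, which encode a pair of subunits of ATP synthase from 1 shared mRNA, overlap by 46 bases. The end of MT-ATP8 (MT:8366-8572, plus strand) and the start of MT-ATP6 (MT:8527-9207, plus strand) are shown from GENCODE with these shared bases in capitals, because a read on them can be given to either row.
MT-ATP8: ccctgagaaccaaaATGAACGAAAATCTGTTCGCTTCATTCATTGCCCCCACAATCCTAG
MT-ATP6: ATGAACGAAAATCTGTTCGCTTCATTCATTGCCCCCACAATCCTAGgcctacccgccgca

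On the minus strand, which holds the light-strand genes, 4 tRNA rows follow each other closely: MT-TY (tyrosine, MT:5826-5891), MT-TC (cysteine, MT:5761-5826), MT-TN (asparagine, MT:5657-5729) and MT-TA (alanine, MT:5587-5655). They are shown 5′ to 3′ in transcript order because the division of values among them differs between libraries. The capital marks the base that MT-TY and MT-TC share.
MT-TY: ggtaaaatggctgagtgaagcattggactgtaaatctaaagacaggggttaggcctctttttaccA
MT-TC: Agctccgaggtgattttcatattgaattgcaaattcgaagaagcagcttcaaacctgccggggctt
MT-TN: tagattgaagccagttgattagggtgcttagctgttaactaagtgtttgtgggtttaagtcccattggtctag
MT-TA: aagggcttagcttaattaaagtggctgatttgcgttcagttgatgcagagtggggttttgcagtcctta

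Further tRNA rows on which the comparison turns are MT-TE (glutamate, MT:14674-14742, minus), MT-TF (phenylalanine, MT:577-647, plus), MT-TP (proline, MT:15956-16023, minus) and MT-TT (threonine, MT:15888-15953, plus). The tRNA rows are 59 to 75 bases long, and the commonest quantum of coverage in genes with few reads, 302 bases, corresponds to pairs of 151-base reads. A read of that full length is longer than any of these rows. A row's value is the coverage of its window, to which reads that reach beyond it can add, not a count of mature tRNA. The reads themselves, which trimming can shorten, were not examined.
MT-TE: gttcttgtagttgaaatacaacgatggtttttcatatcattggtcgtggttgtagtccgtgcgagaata
MT-TF: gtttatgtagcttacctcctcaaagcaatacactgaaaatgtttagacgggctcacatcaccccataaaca
MT-TP: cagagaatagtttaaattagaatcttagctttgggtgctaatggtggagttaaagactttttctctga
MT-TT: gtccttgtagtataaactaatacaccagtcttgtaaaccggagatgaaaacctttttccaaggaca

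The lengths of 6 of the 13 mRNA rows leave bases over after whole codons: MT-ND1, MT-ND2, MT-CO3, MT-ND3, MT-ND4 and MT-CYB. In such mRNAs the tail supplies the rest of the stop codon. The last bases of MT-CYB (MT:14747-15887, plus strand) are shown with the base left over, the first of its stop codon, in capitals.
MT-CYB: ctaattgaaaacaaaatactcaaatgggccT

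Facts of the whole series that bear on these rows are few. MEN1 stood at 6.54 ± 0.303 TPM (a level per length, given as a share of the library) after MEN1 knockdown and at 39.3 ± 2.10 TPM in controls (SD, n = 3 each). Inferred depth was 18400000 to 35800000 read pairs per library. The summed TPM of 10 globin genes was 92137 to 104489 after MEN1 knockdown and 52304 to 57761 in controls, and since TPM is a share, this lowers every other TPM in the knockdown libraries. Erythroid markers were high in all libraries (GATA1 at 270.0 to 291 TPM). Of 4 megakaryocyte markers, PF4 and PPBP were at 0 in all 6 libraries and GP9 was at most at 0.133 TPM, while ITGA2B stood at a mean of 18.6 TPM after MEN1 knockdown and 33.8 TPM in controls (log2 fold change -0.83, adjusted p 0.000456 in limma). The B cell marker MS4A1 was at 0 in all 6, and the summed level of 5 myeloid markers was at most 2.40 TPM. EPCAM and the mast cell gene TPSAB1 stood at means of 239 and 644 TPM in controls and 132 and 448 TPM after MEN1 knockdown. The other mast cell marker listed, CPA3, was at 0.331 to 0.835 TPM over the 6 libraries. COL1A1 and COL1A2, listed with EPCAM as stromal or epithelial markers, were at most at 2.24 and 2.02 TPM, both in control replicate 2. The nuclear-retained RNAs MALAT1 and NEAT1 summed to 78.5 to 114 TPM after MEN1 knockdown and to 57.6 to 69.4 TPM in controls, and their part in the results was not tested.

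Most mitochondrial mRNAs have no usable estimate in the deposited tables. MT-CO1, MT-CO2, MT-ND3, MT-ND4L, MT-ND4 and MT-ND5 are listed at 0 TPM in all 6 libraries. MT-ND1, MT-ND2 and MT-CO3 are listed below 0.1 TPM in all 6, at most at 0.00674 TPM. MT-CO1 encodes the catalytic subunit of cytochrome c oxidase and MT-ND4 and MT-ND5 encode membrane subunits of complex I that respiring cells use, so a value of 0 here is read as a row without an estimate and not as an absent transcript. No fold change is given for these 9 rows.

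The 4 mRNA rows with values were uneven. MT-ATP6, which encodes subunit a of ATP synthase, had 15558, 13874 and 15564 TPM after MEN1 knockdown and 17025, 17038 and 17769 TPM in controls. It held 74.2% to 79.5% of all mitochondrial TPM in each library and was covered by 40250 to 83304 reads per base. The next mRNA rows, MT-ATP8, MT-CYB and MT-ND6, reached at most 311, 426 and 293 TPM.

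Rows with a value were more frequent on the minus strand. All 9 minus-strand rows reached 1 TPM in at least 3 libraries, the filter for testing, against 7 of the 28 plus-strand rows. Those 7 were MT-TF, MT-RNR1, MT-RNR2, MT-ATP8, MT-ATP6, MT-CYB and MT-TT. Of 22 tRNA rows 10 passed, both rRNA rows passed, and 20 of all 37 rows were below 0.1 TPM in all 6 libraries. Among tRNA rows, MT-TM, MT-TW, MT-TD, MT-TK, MT-TH and MT-TL2 were listed at 0 in all 6 libraries, and MT-TL1, MT-TI, MT-TG, MT-TR and MT-TS2 were at most at 0.0437 TPM. MT-TV lay between, at 0.0627 to 0.737 TPM. Each of the 16 rows reached 1 TPM in libraries of both groups, so none passed through 1 group alone.

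**Figure D1:**
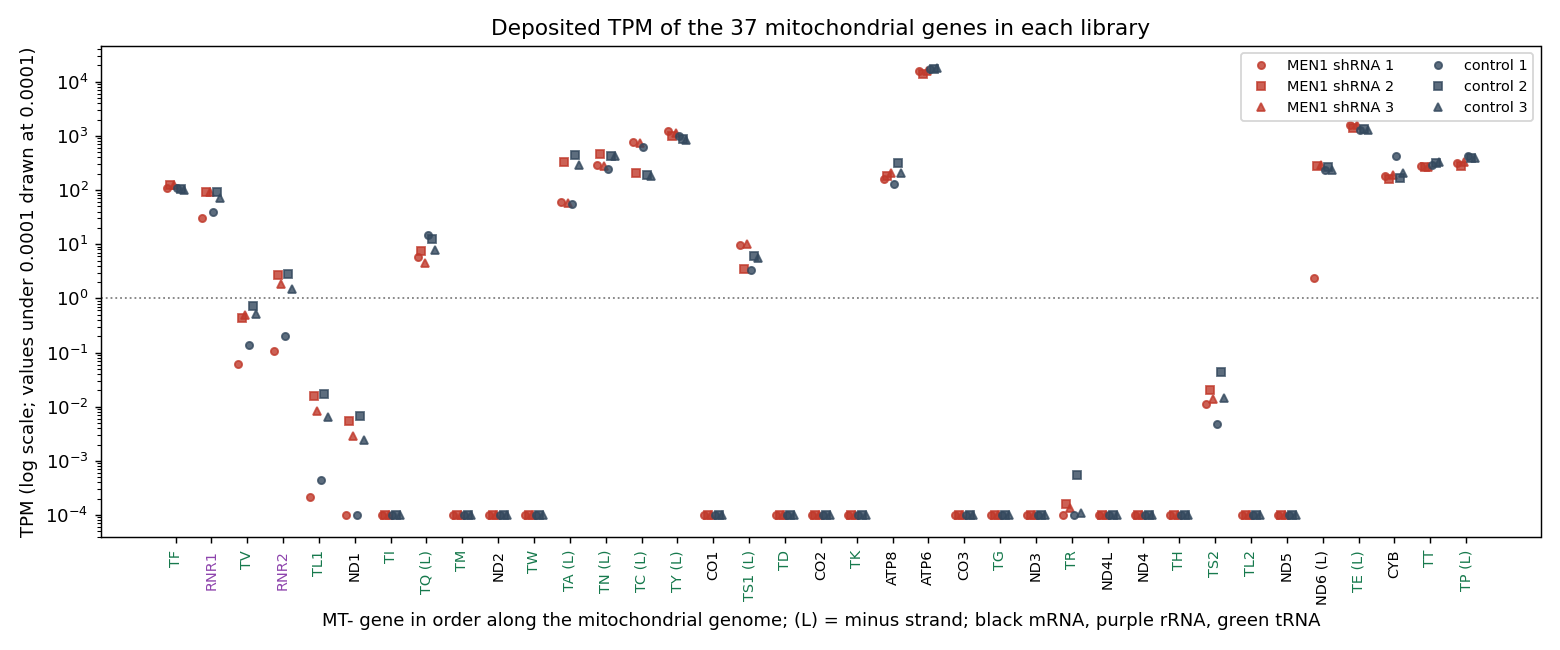
Deposited TPM (vertical axis, log scale, values under 0.0001 drawn at 0.0001) of each of the 37 MT- genes in order along the mitochondrial genome (horizontal axis), with 1 point per library, red for MEN1 shRNA and grey for control. MT-ATP6 stands above all other rows in all 6 libraries, minus-strand rows (L) are all above 1 TPM in at least 3 libraries, and most plus-strand rows lie at the floor.

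The rRNA end of the heavy-strand transcript showed a fall of the listed values along abutting rows, with MT-RNR2 somewhat above MT-TV. From MT-TF through MT-RNR1 (12S rRNA, MT:648-1601), MT-TV (valine tRNA) and MT-RNR2 (16S rRNA, MT:1671-3229) to MT-TL1 (a leucine tRNA), values went in knockdown replicate 1 from 112 to 30.7, 0.0627, 0.105 and 0.000218 TPM. In control replicate 2 the same rows were at 106, 93.8, 0.737, 2.82 and 0.0172 TPM. All 6 libraries followed this course.

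MT-RNR1 was at 30.7, 91.3 and 91.3 TPM after MEN1 knockdown and at 39.3, 93.8 and 71.9 TPM in controls. MT-RNR2 was at 0.105, 2.66 and 1.84 TPM after MEN1 knockdown and at 0.202, 2.82 and 1.49 TPM in controls. Replicate 1 was the lowest of each group for both rRNAs, and the groups overlapped. The log2 fold change of TPM + 1 was -0.01 for MT-RNR1 (SE 0.463, adjusted p 0.983 in limma) and 0.00 for MT-RNR2 (SE 0.541, adjusted p 0.998). Without knockdown replicate 1 the log2 fold change was 0.50 for MT-RNR1. In replicate 1 of each group MT-RNR2 was below the 1 TPM of the filter, so a ratio to it rests there on a low value. The ratio of MT-RNR1 to MT-RNR2, in which the scaling of a library cancels, was 291, 34.3 and 49.6 after MEN1 knockdown and 195, 33.3 and 48.1 in controls. It did not differ beyond this spread (difference of log2 ratios 0.22, 2-sided exact permutation p = 0.6, smallest possible 0.1), and the sign of this difference turned without knockdown replicate 1 or without control replicate 2 or 3, to -0.72, -0.29 and -0.02. Of 17 other RNAs without a poly(A) tail, 7 passed the filter, and TERC, SCARNA2, RNY3 and RNU12 were listed at 0 in all 6 libraries. RN7SK, the scaffold of an inhibitor of transcription elongation, was at 380 to 565 TPM after MEN1 knockdown and 520 to 825 TPM in controls.

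Of 16 mitochondrial rows tested, 6 passed an adjusted p of 0.05 in the limma fit over all 14294 genes tested, 3 higher and 3 lower after MEN1 knockdown, and all 6 were tRNA rows. Over all genes tested 53.6% passed, 22.1% higher and 31.5% lower. By class, 6 of the 10 tRNA rows tested passed (60%, with 30% higher and 30% lower), a share near that of all genes. Of the 2 rRNA rows 0 passed. With median-of-ratios scaling the calls over all genes were more even, with 3758 higher and 3838 lower in place of 3158 and 4499. None of the 4 mRNA rows tested passed in limma; at an unadjusted p of 0.05, MT-ATP6 alone did (p 0.0298). The groups did not overlap in 6 of the 16 rows, 2 above and 4 below, against 61.8% of all genes tested (25.8% above and 35.9% below). The median log2 fold change was -0.33 over the 4 mRNA rows and 0.049 over the 10 tRNA rows, beside -0.07 over all genes tested. Without knockdown replicate 1 the mRNA median was -0.14. The tRNA median was 0.11 without knockdown replicate 1 or 3, 0.12 and 0.099 without control replicates 2 and 3, and turned to -0.0098 and -0.023 without knockdown replicate 2 and control replicate 1. It was 0.14 with median-of-ratios scaling.

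In 6 of the 16 rows tested, the highest library of each group was less than 1.5 times the lowest: MT-TF, MT-TY, MT-ATP6, MT-TE, MT-TT and MT-TP. These rows are described first. The other 10 varied more than that within at least 1 group.

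MT-ATP6 was lower in every knockdown library than in any control, at 14999 ± 974 against 17278 ± 426 TPM (SD, n = 3 each). Its log2 fold change of -0.21 (SE 0.0770, adjusted p 0.0547 in limma) did not pass the threshold. The size depended on scaling, with -0.14 (adjusted p 0.174) when TPM was rescaled without globin and mitochondrial genes and -0.12 (adjusted p 0.328) with median-of-ratios scaling. With only genes at a mean TPM of 5 or more fitted, MT-ATP6 passed (adjusted p 0.0232), and over all alternatives its adjusted p ran from 0.0232 to 0.481. Whether mitochondrial RNA fell, or scaling or reads given to the nuclear copy (below) lowered this row, was not tested. In bulk RNA, fewer mitochondria per cell and less RNA per mitochondrion could not be told apart either.

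MT-TE, the window of the glutamate tRNA between MT-ND6 and MT-CYB, was at 1587, 1411 and 1595 TPM after MEN1 knockdown and at 1262, 1324 and 1278 TPM in controls. Every knockdown library exceeded every control. The rise to 1531 ± 104 from 1288 ± 32.2 TPM (log2 fold change 0.25, SE 0.0653, adjusted p 0.0145 in limma) kept its direction under all alternatives run and passed the threshold in 13 of 14, the exception being the fit without a filter (adjusted p 0.0677). Summed with MT-ND6, which abuts it, the pair was at 1590, 1693 and 1888 TPM after MEN1 knockdown and at 1496, 1590 and 1513 TPM in controls. This sum overlapped between the groups, and in aligned bases as a share of the library, where the longer MT-ND6 weighs more, its ratio was 0.972.

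MT-TP, the window of the proline tRNA at the edge of the control region, was at 323, 276 and 332 TPM after MEN1 knockdown and at 421, 391 and 396 TPM in controls. The groups did not overlap. This fall, from a mean of 402 ± 16.3 to one of 310.4 ± 29.96 TPM (by limma -0.38 on the log2 scale, SE 0.0791, adjusted p 0.00502), passed the threshold under all 14 alternatives run, with log2 fold changes of -0.43 to -0.29. Among the 16 rows it had the lowest adjusted p.

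Next to it on the opposite strand, with 2 bases between, lies MT-TT, the window of the threonine tRNA. It was at 284, 264 and 266 TPM after MEN1 knockdown and at 285, 322 and 330.0 TPM in controls, so that the lowest control nearly met the highest knockdown library. Its log2 fold change by limma was -0.20 (SE 0.0698, adjusted p 0.0416). The call was lost in 10 of 14 alternatives, among them both rescalings (-0.13 and -0.11, adjusted p 0.147 and 0.179), the replicate block (adjusted p 0.0885) and the fits without knockdown replicate 2 or 3 or control replicate 2 or 3 (adjusted p 0.106 to 0.129). Whether the authors' quantification used strand is not given in the sources used here, and without strand, reads from opposite-strand neighbours cannot be told apart.

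MT-TF, the phenylalanine tRNA window at the start of the heavy-strand transcript, was at 112, 125 and 123 TPM after MEN1 knockdown and at 108, 106 and 99.7 TPM in controls. The groups did not overlap, but the lowest knockdown library lay close to the highest control. Its log2 fold change of 0.19 (SE 0.0664, adjusted p 0.0396 in limma) passed the threshold in 6 of 14 alternatives. The call was lost with the replicate block (adjusted p 0.0830), without knockdown replicate 2 or 3 (adjusted p 0.124 and 0.112) and without any 1 of the controls (adjusted p 0.0523, 0.0804 and 0.124 for replicates 1, 2 and 3). Summed with MT-RNR1, which abuts it, the pair was at 142, 217 and 214 TPM after MEN1 knockdown and at 148, 199 and 172 TPM in controls, with overlapping groups.

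MT-TY, the tyrosine tRNA window, was at 1240.0, 989 and 1121 TPM after MEN1 knockdown and at 1001, 876 and 855 TPM in controls. Knockdown replicate 2 lay below control replicate 1, so the groups overlapped. Its log2 fold change by limma was 0.29 (SE 0.0977, adjusted p 0.0371), and the call was lost in 6 of 14 alternatives, including the fits without knockdown replicate 1 or 3 (adjusted p 0.0963 and 0.0855) and without control replicate 2 or 3 (adjusted p 0.107 and 0.110).

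**Figure D2:**
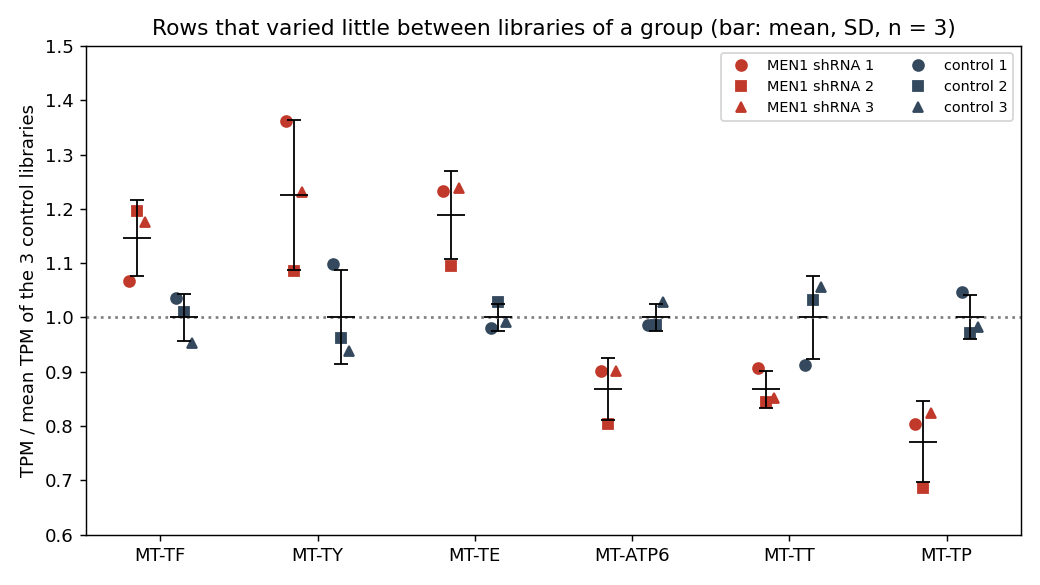
TPM of the 6 rows that varied least within groups, each divided by the mean of its 3 control libraries (vertical axis), with 1 point per library, red for MEN1 shRNA and grey for control; bars give the mean and SD (n = 3). MT-TE lies above and MT-ATP6 and MT-TP lie below the controls in all 3 knockdown libraries, while the groups meet or nearly meet in MT-TF, MT-TY and MT-TT.

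The light-strand cluster showed how values were divided among neighbours. MT-TA was at 61.4, 330.3 and 57.7 TPM in knockdown replicates 1, 2 and 3 and at 55.3, 442 and 289 TPM in controls 1, 2 and 3. MT-TC ran the other way, at 780, 210.1 and 738 TPM after MEN1 knockdown and at 627, 189 and 181 TPM in controls. MT-TN was at 290.2, 473 and 276 TPM after MEN1 knockdown and at 247, 433 and 431 TPM in controls. MT-TC was high and MT-TA and MT-TN low in knockdown replicates 1 and 3 and control replicate 1, and the reverse held in the other 3 libraries, so the division crossed the groups.

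As a percent of the summed TPM of the 4 rows, MT-TC took 32.5% to 33.7% in the first 3 of these libraries and 9.75% to 10.5% in the other 3. MT-TA took 2.59% to 2.86% and 16.4% to 22.8% in the same order. MT-TY held a nearly constant 45.2% to 52.3%. Neither MT-TA, MT-TC nor MT-TN passed the threshold (log2 fold changes -0.86, 0.83 and -0.10, adjusted p 0.452, 0.298 and 0.792 in limma). With 1 library left out MT-TA ran from -1.75 (without control replicate 1) to -0.26 (without control replicate 2), and MT-TC from 0.50 (without knockdown replicate 1) to 1.44 (without knockdown replicate 2). The sum of the 4 rows was steadier, at 2371, 2002 and 2193 TPM after MEN1 knockdown and 1930.5, 1940.3 and 1756 TPM in controls, 1.17 times the control mean, with no overlap. This sum was formed after the values were seen and is given without a test.

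**Figure D3:**
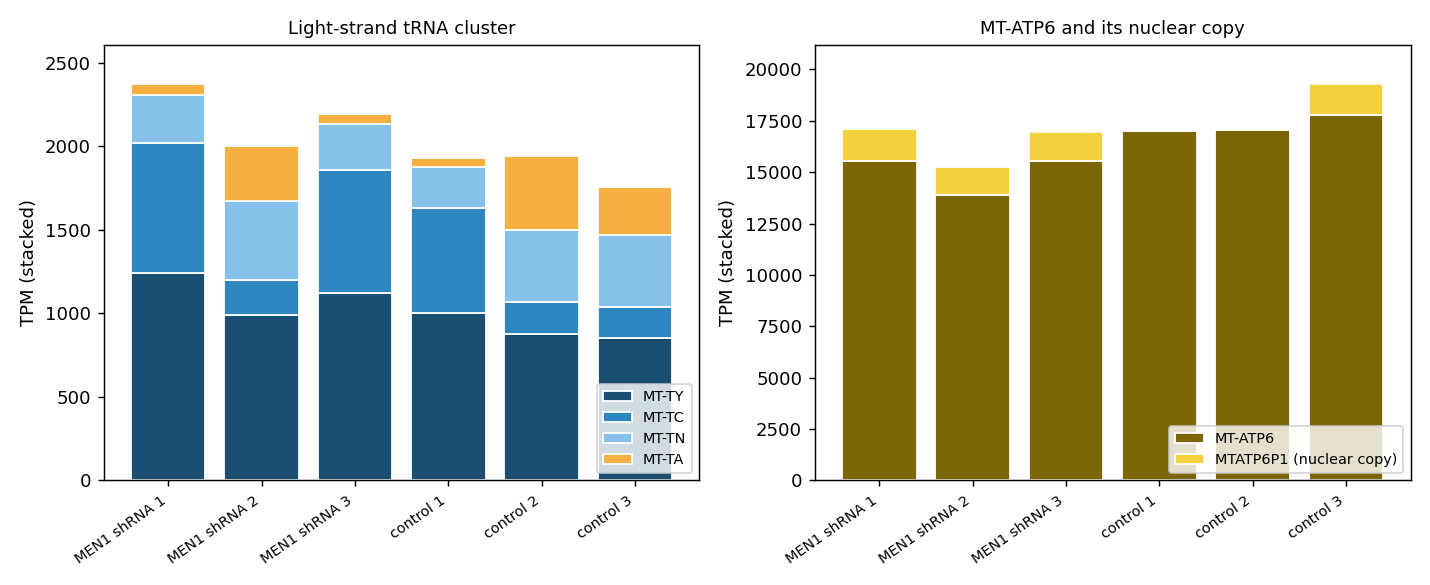
Stacked TPM per library (vertical axes, from 0) of the 4 light-strand tRNA rows MT-TY, MT-TC, MT-TN and MT-TA (left) and of MT-ATP6 with its nuclear copy MTATP6P1 (right). On the left the split between MT-TC and MT-TA differs between libraries of the same group; on the right the nuclear copy is visible in 4 libraries and nearly missing in control replicates 1 and 2.

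MT-ND6, the only mRNA of the light strand, encodes a membrane subunit of complex I (MT:14149-14673, minus strand). It was at 2.35, 282 and 293 TPM after MEN1 knockdown and at 233, 266 and 235 TPM in controls. Knockdown replicate 1 lay far below the other 5 libraries, while MT-TE beside it was not lowered there. Its log2 fold change by limma was -1.91 (SE 1.57, adjusted p 0.340), and without knockdown replicate 1 the sign turned to 0.23 with an adjusted p of 0.0351, so this library decides both the direction and the call.

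MT-CYB, which encodes cytochrome b of complex III, was at 182, 162 and 186 TPM after MEN1 knockdown and at 426, 167 and 203 TPM in controls. Control replicate 1 stood apart, and the other 2 controls lay close to the range of the knockdown libraries. The log2 fold change of -0.46 (SE 0.307, adjusted p 0.241 in limma) became -0.06 without control replicate 1.

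MT-ATP8 was at 159, 186 and 203 TPM after MEN1 knockdown and at 129, 311 and 204 TPM in controls, with overlapping groups (log2 fold change -0.15, SE 0.281, adjusted p 0.689 in limma). Its sign turned to 0.17 without control replicate 2. Added to MT-ATP6, with which it shares an mRNA, the pair came to 15717, 14060 and 15768 TPM after MEN1 knockdown and to 17153, 17349 and 17973 TPM in controls.

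The remaining light-strand tRNA windows were low. MT-TQ (glutamine), which overlaps MT-TI on the opposite strand by 3 bases, was at 5.78, 7.62 and 4.56 TPM after MEN1 knockdown and at 14.95, 12.7 and 7.96 TPM in controls. The groups did not overlap, although control replicate 3 lay close to knockdown replicate 2. Its log2 fold change of -0.86 (SE 0.241, adjusted p 0.0181 in limma) passed the threshold in 10 of 14 alternatives and lost it without knockdown replicate 3 or control replicate 1 or 2 (adjusted p 0.0573 to 0.0595) and without a filter. MT-TS1 (a serine tRNA) was at 9.70, 3.47 and 10.1 TPM after MEN1 knockdown and at 3.41, 6.08 and 5.63 TPM in controls and did not pass (log2 fold change 0.45, SE 0.362, adjusted p 0.328), but passed without knockdown replicate 2 (0.88, adjusted p 0.0167).

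Summed by class, the mRNA rows made up 1.59%, 1.45% and 1.62% of TPM after MEN1 knockdown and 1.78%, 1.78% and 1.84% in controls. The ratio of the means was 0.864, the groups did not overlap, and the sum follows MT-ATP6. With globin genes left out of the total the ratio was 0.906. The tRNA rows made up 0.469%, 0.409% and 0.452% after MEN1 knockdown and 0.403%, 0.410% and 0.387% in controls, a ratio of 1.11 with overlapping groups. For these the groups did not overlap with globin genes left out of the total (ratio 1.16) or as a percent of aligned bases (ratio 1.13). The rRNA rows made up at most 0.00966% in any library. As a percent of aligned bases, all 37 rows together held 0.478% to 0.530% after MEN1 knockdown and 0.560% to 0.583% in controls. Since 9 mRNA rows have no estimate, these sums are sums of rows and not the share of mitochondrial RNA in the cells.

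Copies of mitochondrial DNA in the nuclear genome have rows of their own in the tables, and some held values where the mitochondrial row had none. A segment of chromosome 1 carries copies of several mitochondrial genes in a row. MTND2P28 (1:629640-630683), which matches MT-ND2 over 1042 aligned bases with 98.4% identity, was at 1095, 971 and 1037 TPM after MEN1 knockdown and 1127, 1119 and 1124 TPM in controls. MTCO1P12 (1:631074-632616, 98.7% identical to MT-CO1) was at 404, 433 and 102 TPM after MEN1 knockdown and 380, 418 and 375 TPM in controls. MT-ND2 and MT-CO1 themselves are listed at or near 0. Whether reads from the mitochondrial transcripts were given to these rows was not tested.

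The nuclear copy of MT-ATP6 bears directly on the comparison above. MTATP6P1 (1:633696-634376) aligns with MT-ATP6 over all 681 bases with 10 mismatches (98.5% identity). A window of both sequences from base 43 to base 192 of the gene is shown, with the 4 differing bases in capitals: C129T, A151C, A175G and A192G, counted from 1 at the 5′ end of MT-ATP6 with the MT-ATP6 base first.
MT-ATP6: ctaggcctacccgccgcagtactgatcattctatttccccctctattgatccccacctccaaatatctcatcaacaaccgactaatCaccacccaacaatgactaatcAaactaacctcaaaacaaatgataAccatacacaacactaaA
MTATP6P1: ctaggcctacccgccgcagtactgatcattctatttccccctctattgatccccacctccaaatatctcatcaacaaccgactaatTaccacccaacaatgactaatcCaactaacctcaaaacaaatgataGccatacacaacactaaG

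MTATP6P1 was at 1541, 1386 and 1411 TPM after MEN1 knockdown and 10.8, 9.47 and 1507 TPM were listed for control replicates 1, 2 and 3. Its neighbours MTATP8P1 and MTCO3P12 held 32.9 and 49.2 TPM in knockdown replicate 1. They held 45.2 and 56.0 TPM in control replicate 1 and 37.6 and 54.5 TPM in control replicate 2. Both were at 0 in knockdown replicates 2 and 3 and control replicate 3. The cause of this division was not tested. With MTATP6P1 added to MT-ATP6, the sum was 17099, 15259 and 16976 TPM after MEN1 knockdown and 17036, 17048 and 19276 TPM in controls. The groups then overlapped, and the log2 fold change went from -0.21 to -0.11 (adjusted p 0.312 in limma). This alternative was chosen after the data were seen. With the nuclear copies of all mRNAs added, the mRNA rows made up 1.91%, 1.74% and 1.89% of TPM after MEN1 knockdown. The controls were at 1.96%, 1.96% and 2.15% (ratio of means 0.916), and for this wider sum the groups did not overlap. The nuclear copy of MT-ND6, MTND6P4 on chromosome 5 (95.0% identical), was at 36.7 to 41.4 TPM after MEN1 knockdown and 27.1 to 37.8 TPM in controls, and in knockdown replicate 1, where MT-ND6 was at 2.35 TPM, it was at 37.6 TPM.

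The nuclear genes that copy, transcribe, process and translate this genome are well measured in the same libraries. A list of 81 such factors was set up by role, of which 80 were tested; 55 were lower and 4 higher after MEN1 knockdown, so 68.8% were lower against 31.5% of all genes tested. Their median log2 fold change was -0.44 against -0.07 over all genes tested. The 4 higher were MTERF2, MTIF3, PRIMPOL and DNA2, of which MTIF3, PRIMPOL and DNA2 are named because the count is small, after their values were seen. The summed TPM of the 81 factors was 3324 to 3570 after MEN1 knockdown and 4852 to 5045 in controls.

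Transcription factors of the mitochondrion came first in the list. Of 8 genes, 5 were lower and 1 higher (62.5% and 12.5%, against 31.5% and 22.1% of all genes tested). POLRMT, the mitochondrial RNA polymerase, was at 46.65, 43.3 and 38.4 TPM after MEN1 knockdown and 73.9, 69.4 and 72.1 TPM in controls (log2 fold change -0.74, SE 0.0808, adjusted p 0.000233). TFB2M, which opens the promoter with it, fell from 36.6 ± 2.07 to 19.3 ± 2.79 TPM (-0.89), and TFAM, which packages the DNA and bends it at promoters, fell from 83.1 ± 18.6 to 54.8 ± 6.21 TPM (-0.58, adjusted p 0.0155). The elongation factor TEFM fell by 0.41 on the log2 scale (adjusted p 0.0166). Without a filter neither TFAM nor TEFM passed (adjusted p 0.0682 and 0.0509), and TEFM did not pass without knockdown replicate 3 (adjusted p 0.0506). MTERF3 fell by 0.60 on the log2 scale, while MTERF2, of the same protein family, was higher at 44.9 ± 2.17 against 27.7 ± 8.01 TPM (0.71, adjusted p 0.00986).

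Of 14 genes of mitochondrial DNA replication and upkeep, 8 were lower and 2 higher (57.1% and 14.3%, against 31.5% and 22.1% of all genes tested). The helicase gene TWNK was at 21.5, 13.45 and 19.7 TPM after MEN1 knockdown and 48.5, 45.9 and 53.1 TPM in controls (-1.41 on the log2 scale, adjusted p 0.000286 in limma). POLG2, the accessory subunit of the DNA polymerase, fell from 27.3 ± 3.50 to 7.65 ± 1.24 TPM (-1.71), the nuclease gene MGME1 from 51.7 ± 0.815 to 23.9 ± 0.870 TPM (-1.08), and the catalytic subunit gene POLG from 46.4 ± 3.27 to 37.8 ± 1.66 TPM (-0.29). The groups did not overlap in any of these 4 genes, which was also so for 61.8% of all genes tested (35.9% below).

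Most factors that process and keep the RNA were lower as well. For processing these were 8 of 11 (72.7%) and for poly(A) addition, stability and decay 7 of 8 (87.5%), against 31.5% of all genes tested. None was higher in either role. HSD17B10, a subunit of the mitochondrial RNase P complex, fell from 208 ± 8.15 to 78.3 ± 4.45 TPM (-1.40 on the log2 scale, adjusted p 1.62e-05 in limma), while ELAC2, which cuts the other end of the tRNAs, did not pass (-0.15, adjusted p 0.0750). LRPPRC, which binds and stabilises the mRNAs, fell from 288 ± 13.96 to 171 ± 9.48 TPM (-0.75), and its partner SLIRP did not pass (-0.15, adjusted p 0.0954). The poly(A) polymerase gene MTPAP fell from 22.8 ± 2.47 to 15.8 ± 0.726 TPM (-0.50). PNPT1 and SUPV3L1, which together form the degradosome, fell by 0.86 and 0.65 on the log2 scale, and the exonuclease gene REXO2 fell by 0.93.

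The other roles gave the same kind of count, again to be read beside the 31.5% of all genes tested that were lower. Of 11 tRNA maturation genes 8 were lower, with PUS1, a pseudouridine synthase, at 18.6 ± 4.54 against 49.7 ± 5.24 TPM. Of 7 rRNA modification genes 5 were lower, with MRM1, a methyltransferase of the 16S rRNA, at 6.91 ± 1.37 against 25.8 ± 1.04 TPM. Of 13 translation factors 9 were lower and 1 higher, with the elongation factor TUFM at 236 ± 12.5 against 360 ± 4.46 TPM. Among nuclear regulators 5 of 8 tested were lower, led by MYC at 74.1 ± 15.4 against 232 ± 6.52 TPM and PPARGC1B at 1.56 ± 0.237 against 5.00 ± 0.425 TPM. NRF1 and GABPA, factors known to activate many of these genes, did not pass (log2 fold changes 0.07 and 0.15, adjusted p 0.486 and 0.110 in limma), GABPA passing with both rescalings (0.24 and 0.22). PPARGC1A was below the filter.

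**Figure D4:**
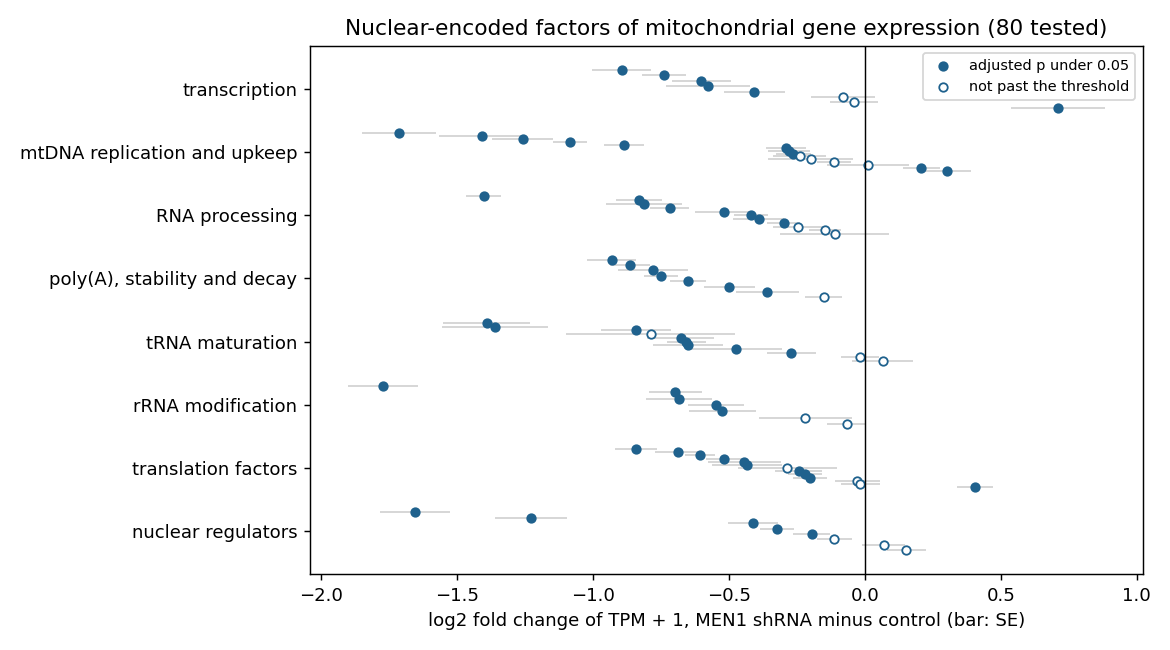
Log2 fold change of TPM + 1, MEN1 shRNA minus control (horizontal axis, bars are SE), for the 80 tested nuclear-encoded factors of mitochondrial gene expression by role (vertical axis), with filled points past an adjusted p of 0.05. Most points lie left of 0 in all 8 roles, with 55 lower and 4 higher among those past the threshold.

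The nuclear-encoded subunits of the respiratory complexes that the mitochondrial mRNAs contribute to were also tested. Of 75 tested, 35 were lower and 5 higher (median log2 fold change -0.20). The share past the threshold, 53.3%, was near the 53.6% of all genes tested, with 46.7% lower against 31.5%. With median-of-ratios scaling 24 were lower and 8 higher. By complex, 17 were lower and 3 higher of 37 for complex I, 4 and 1 of 9 for complex III, 5 and 1 of 12 for complex IV and 9 and 0 of 17 for complex V. In complex V, whose mitochondrial subunit genes are MT-ATP6 and MT-ATP8, ATP5MC1 fell from 206 ± 3.31 to 82.8 ± 7.42 TPM and ATP5MC3 from 312 ± 11.4 to 205 ± 7.25 TPM. In complex IV, COX4I1 fell from 593 ± 17.1 to 330.4 ± 34.2 TPM and COX7C rose from 132 ± 21.5 to 436 ± 20.1 TPM. In complex I, NDUFB5 and NDUFB3 fell by 2.21 and 0.66 on the log2 scale, and in complex III UQCRC2 and UQCRC1 fell by 0.37 and 0.34. The mRNAs MT-CO1, MT-CO2 and MT-CO3 of complex IV and 6 of the 7 complex I mRNAs have no estimate to set beside these.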

How the data were processed

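The comparison used 6 poly(A)-selected, strand-specific RNA libraries, 3 per shRNA. The submitters' processing notes name FastQC, Trimmomatic, STAR 2.7.1a, Picard 2.20.4 and StringTie 2.0.4 and the build hg38, with no role or order. The strand setting, the annotation and any removal of duplicates were not given in the sources used here. Per the file headers, the deposited coverage signal is the mean read depth per base of a gene, the deposited FPKM is scaled per kilobase and fragments, and the deposited TPM is a share of the library. TPM or coverage residues just below 0 in control replicate 2 (2 genes) were set to 0. Depth was inferred from the ratio of coverage to FPKM; no counts were used.

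The 14294 genes that reached 1 TPM in at least 3 libraries were fitted as log2(TPM + 1), which understates changes of low genes, with limma 3.58.1 in R 4.3.3 (eBayes with trend), 2-sided, Benjamini-Hochberg adjusted over all genes tested, with a threshold of 0.05. The script was tested on simulated data. Ratios were compared with exact permutation tests. Sequences are from GENCODE release 29 transcripts, where all 37 rows have one, and were aligned with Biopython 1.88. The members and lists were chosen with earlier results of these data known. Text names all MT- genes, MEN1, 15 fixed factors and at most 2 further called genes per role or complex with the lowest adjusted p; nuclear copies and other exceptions were named after their values were seen. Figures used matplotlib 3.10.9. The planned ratios of MT-RNR2 to MT-ND1 and of MT-ND6 to MT-ND5 were not formed, since MT-ND1 and MT-ND5 have no usable estimate.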

Additional observations from a re-analysis of the deposited data

How the results depend on the processing

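Alternatives changed 1 choice at a time: pseudocount, filter, FPKM, scaling, eBayes without trend, replicate block, and each library left out; sums with nuclear copies were added after seeing the data. For the 55 named genes, neither direction nor call changed in 719 of 771 comparisons. The count of mitochondrial mRNAs past the threshold, 0, became 1 at a mean TPM of 5 or more (MT-ATP6) and ranged from 0 to 1 with 1 library left out; with nuclear copies it was 0. The count of tRNA rows, 6, fell to 1 without a filter, which changes both the genes tested and the variance trend of the fit. It fell to 3 without trend, and ranged from 2 to 5 with 1 library left out (2 without knockdown replicate 3 or control replicate 2). The rRNA count was 0 throughout. Factor calls ran from 49 to 59 and respiratory subunit calls from 32 to 42. The difference in mRNA percent, -0.245 points of TPM, was -0.0663 points of aligned bases, a different total; for tRNA 0.0435 became 0.00162. With 1 library left out these ran from -0.280 to -0.193 and from 0.0306 to 0.0607.

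Directions that turned concern rows that vary within groups. The rRNA percent difference, 0.000282, ran from -0.00123 to 0.00237 with 1 library left out, turning without knockdown replicate 2 (-0.000785) or 3 (-0.000744) or control replicate 1 (-0.00123). The log2 ratio of MT-RNR1 to MT-RNR2 ran from -0.72 to 0.98. MT-RNR1 was 0.019 with FPKM, 0.072 with median of ratios, 0.051 without globin and mitochondrial genes, and -0.36 to 0.50 with 1 library left out. MT-RNR2 was -0.12 at a pseudocount of 0.1. With 1 library left out, MT-RNR2 ran from -0.45 to 0.52, MT-TN from -0.36 to 0.046, MT-ATP8 from -0.47 to 0.17 and MT-ND6 from -2.99 to 0.23. The causes were not tested.

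Over all genes tested, replicate numbers did not pair the libraries (correlations of deviations 0.017, -0.027 and -0.012). The rRNA rows differed from this, as both were lowest in replicate 1 of each group. The ratio of MT-RNR1 to MT-RNR2 was highest there (291 after MEN1 knockdown, 195 in controls), where MT-RNR2 was below 1 TPM. The permutation test of this ratio was unpaired. With the replicate block, 7012 genes, 0 mRNA, 0 rRNA and 4 tRNA rows, 51 factors and 36 respiratory subunits passed. The largest shift of the all-gene median under a rescaling was 0.078.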
